A study of Mus musculus with 18 samples.

Results

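The comparison is of Mst1KO with WT invariant natural killer T (iNKT) cells at stage 3 (S3), the most mature thymic stage, across all genes that the array annotation names by a single symbol. Of 22180 such genes, 13034 passed the filter on dim signals and were tested. It uses the 3 arrays titled Mst1KO_S3 and the 3 titled WT_S3, which are 6 of the 18 arrays of the series. The remaining 12 cover the 2 earlier stages, S2 and S1, in the same genotypes. Mst1KO cells came from Cd4CreMst1fl/fl mice, in which Cre recombinase under the Cd4 promoter deletes the floxed Mst1 gene (official symbol Stk4), so deletion begins when developing T cells first turn on Cd4 and is not limited to iNKT cells. WT cells came from wild-type mice, and the labels name no Cre or floxed allele in them. Both genotypes were C57BL/6, with 3 mice of each by the series design. Ages are not given in the sources used here. In both, thymocytes passed a CD8 microbead step and were then sorted as T cell receptor beta positive, CD1d-PBS57 tetramer positive and CD24 negative, and S3 was gated as CD44 positive and NK1.1 positive. Nothing in the labels ties an array to 1 mouse, and the p-values therefore rest on a spread between samples that may be technical. With 3 arrays a group, the number of arrays limits the precision of every value.

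iNKT cells are T cells whose semi-invariant receptor binds lipids on the CD1d molecule. In the thymus they take on effector programs that resemble those of helper T cells: NKT1 cells, which depend on T-bet and make interferon gamma, NKT2 cells, which make IL-4, and NKT17 cells, which make IL-17 and respond to IL-23 and IL-1. In C57BL/6 mice the NK1.1-positive stage consists mostly of NKT1 cells, while NKT17 cells mostly lack NK1.1. MST1 is a kinase of the Hippo pathway, which in many tissues acts through the LATS kinases on the coactivator YAP, and in lymphocytes is also known for roles in integrin adhesion, migration and survival.

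Values are log2 expression by RMA, a method that corrects background, brings the arrays to 1 distribution and summarises the probes of a probe set. Differences are Mst1KO minus WT on the log2 scale, with their standard error (SE), and n = 3 per group throughout. A gene is called changed where limma's test over all 13034 genes gives an adjusted p under 0.05 (Benjamini-Hochberg). Arrays of a group correlated across probe sets at 0.982 to 0.985 in Mst1KO and 0.978 to 0.980 in WT. Array medians lay between 4.84 and 4.93, so a level near 5 is at the dim end, where differences are compressed. Along the first principal component of the 6 arrays (41.2% of the variance) the genotypes did not overlap. Along the second (19%), WT replicate 3 lay at -20.5 and the other 5 arrays between -4.14 and 13.6, so results are also given without WT replicate 3. The stage gate was checked by its markers. Klrb1c, which encodes NK1.1, had a level of 8.78 ± 0.07 (SD) in Mst1KO and 8.51 ± 0.13 in WT at S3, above every S2 and S1 array of the series (at most 5.45). Cd44 stood at 8.40 ± 0.12 in Mst1KO and 8.04 ± 0.08 in WT. Neither gene was called between genotypes, with differences of 0.26 ± 0.23 for Klrb1c and 0.37 ± 0.14 for Cd44.

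Stk4, the targeted gene, had levels of 7.67, 7.74 and 7.56 in Mst1KO and 7.80, 8.20 and 8.13 in WT. All Mst1KO arrays lay below all WT arrays, but the ranges nearly touched and the difference of -0.39 ± 0.11 was not called (adjusted p = 0.0767). Without an S3 array the difference lay between -0.51 and -0.31, and it passed without WT replicate 1 (-0.51, adjusted p = 0.0285). A probe set of this array reads the whole transcript, also the exons outside a floxed segment, and is a weak check of the genotype. Of the 8 measured genes nearest Stk4 on chromosome 2, none was called, and their differences ranged from -0.31 (Slpi) to 0.34 (Ywhab). Stk3, which encodes the related kinase MST2, has no single-symbol probe set and was not analysed here. The 8 measured neighbours of Stk3 on chromosome 15 were not called either, with differences from -0.13 (4930413F20Rik) to 0.23 (Rida).

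Of 13034 genes, 443 were called at S3 (3.4%). Mst1KO was higher in 306 (2.35%) and lower in 137 (1.05%), so 69.1% of the calls were increases. The counts within gene lists below are to be read against these shares. At least 2-fold differences were found in 70 of the higher and 26 of the lower genes. The median difference over all genes was 0.0097, and the median size among called genes was 0.65. The 3 Mst1KO and 3 WT arrays did not overlap in 436 of the 443 called genes and in 3000 of all genes (23%). In 22 of the genes called higher no WT array rose above its own median, and in 15 of the genes called lower no Mst1KO array did, where folds can be understated. Ifitm1, Tjp1 and 1700027F09Rik, also dim at S2 and S1, passed the filter through the genotype that was higher at S3. The filter favoured a difference in such genes. The volcano plot shows the genes with the strongest differences. Without WT replicate 3 there were 353 calls, 237 higher and 116 lower, of which 263 were among the 443. The count was 289 without WT replicate 1, 239 without Mst1KO replicate 1, 255 without Mst1KO replicate 2 and 200 without Mst1KO replicate 3, and 149 genes (33.6%) were called in all 6 fits that left out 1 S3 array. Below, a lost call refers to these fits. When quantile normalization was repeated, the split moved to 230 higher and 173 lower, or 57.1% increases. Fitted on the 6 S3 arrays alone, without the spread seen at S1 and S2, 184 genes were called, and 160 of these were among the 443. Genes named below that lost the call there but in no fit without an array were Il23r, Pcsk1, Tjp1, Il18r1, Il6ra, Ccr10, Cxcr4, Cish, Nr4a1, Bak1 and Anxa2.

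**Figure D1:**
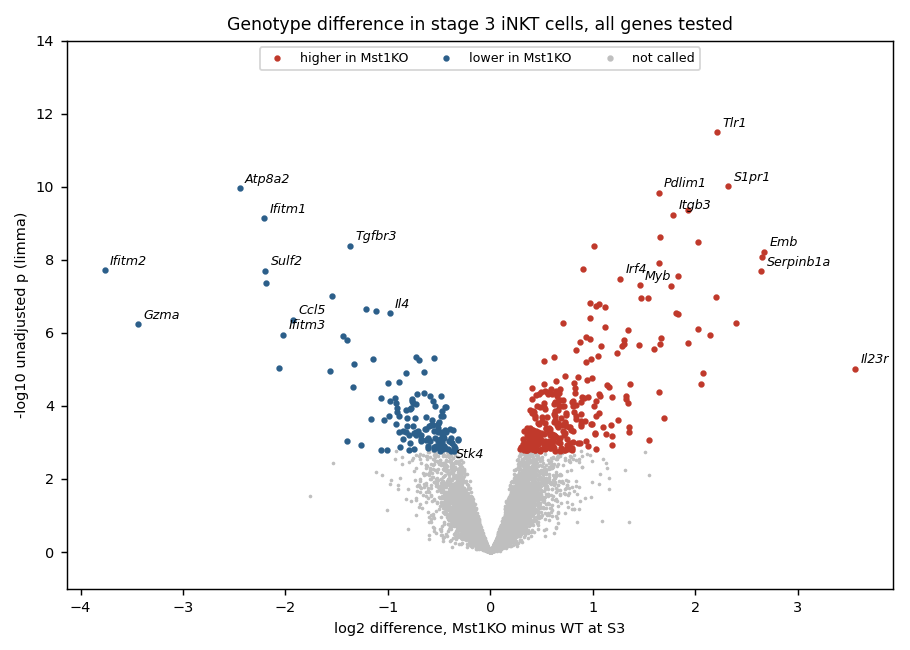
Each point is 1 of 13034 genes, with the log2 difference (Mst1KO minus WT at S3) on the horizontal axis and -log10 of the unadjusted limma p on the vertical axis. Red points are the 306 genes called higher in Mst1KO and blue points the 137 called lower; Il23r lies farthest right at 3.56, and Ifitm2 farthest left at -3.77.

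Of the 15 largest increases, 6 were in genes of the NKT17 program. Of 22 NKT17 genes tested, 14 were higher in Mst1KO, none was lower and 8 were not called, against 2.35% of all genes called higher. Their median difference was 1.13, against 0.0097 over all genes. In a bulk sort, fewer cells of a type and less RNA per cell cannot be told apart, and this holds for every result here. Il23r, the specific chain of the IL-23 receptor, showed the largest increase of all genes. Its levels were 9.45, 9.65 and 9.32 in Mst1KO, against 6.34, 7.48 and 3.92 in WT, a difference of 3.56 ± 0.56 or 11.8-fold (adjusted p = 0.00167). The Mst1KO arrays were close together, while the WT arrays spread over more than 3 log2 units with replicate 3 lowest. Without WT replicate 3 the difference was 2.56, and on the 6 S3 arrays alone, where this spread is not shared with other groups, the call was lost (adjusted p = 0.0793).

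Further receptors and surface proteins of NKT17 cells followed Il23r. Il1r1, the signalling receptor for IL-1, had levels of 7.70, 7.72 and 7.36 in Mst1KO and 5.62, 5.59 and 5.14 in WT (2.14 ± 0.29, adjusted p = 0.00032). Ccr6, the receptor for the chemokine CCL20, stood at 6.87, 6.43 and 6.68 in Mst1KO, against 4.64, 4.82 and 4.43 in WT (2.03 ± 0.26, adjusted p = 0.000232). In WT the Ccr6 values lay at or under the array medians. Il17re, a receptor chain for IL-17C, had levels of 7.11, 7.20 and 7.41 in Mst1KO and 5.80, 6.08 and 5.05 in WT (1.60 ± 0.23, adjusted p = 0.000588). Sdc1, the proteoglycan syndecan-1 that marks NKT17 cells, reached 7.33, 7.30 and 7.11 in Mst1KO, against 5.29, 5.92 and 5.57 in WT (1.65 ± 0.23, adjusted p = 0.000464). With the mean of its probe sets the Sdc1 difference was 1.102. All 4 genes kept the call in each of the 6 fits that left out 1 S3 array.

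Serpinb1a, an inhibitor of serine proteases, had levels of 8.18, 7.97 and 7.78 in Mst1KO and 5.23, 5.95 and 4.82 in WT (2.64 ± 0.26, adjusted p = 1.46e-05). Emb, which encodes embigin, a cell-surface partner of monocarboxylate transporters, stood at 8.34, 8.31 and 8.23 in Mst1KO, against 5.35, 6.42 and 5.08 in WT (2.68 ± 0.24, adjusted p = 6.56e-06). For both genes every Mst1KO array lay far above every WT array, by more than the spread within either genotype. With the mean of its probe sets in place of the brightest, the Emb difference was 1.35. Blk, a Src-family kinase also expressed in gamma-delta T cells and B cells, had levels of 8.74, 8.77 and 8.81 in Mst1KO and 6.59, 6.93 and 5.61 in WT (2.39 ± 0.30, adjusted p = 0.00018). Abi3bp, an extracellular matrix protein gene, was higher by 1.77 ± 0.19 (adjusted p = 3.02e-05). The remaining called members were Pxdc1 (1.35), the membrane protein genes Tmem176a (1.25) and Tmem176b (1.01), the water and glycerol channel Aqp3 (0.86) and Nrp1, the semaphorin receptor neuropilin-1 (0.58).

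The NKT17 cytokine genes themselves did not pass the test. Il17a had levels of 4.99, 4.78 and 4.58 in Mst1KO and 4.15, 4.34 and 4.37 in WT, all near or under the array medians (0.50 ± 0.20, adjusted p = 0.226). Il17f differed by -0.09 ± 0.20. Rora, a nuclear receptor gene, had a difference of 0.66 ± 0.18 (adjusted p = 0.0509), and Maf, a transcription factor of IL-17-producing cells, -0.02 ± 0.14. In the 6 fits that each left out 1 S3 array, between 10 and 14 NKT17 genes were called higher, 12 of them without WT replicate 3. Tmem176a lost its call without Mst1KO replicate 1 or 2 or WT replicate 3 (adjusted p = 0.0702 without WT replicate 3), Nrp1 without Mst1KO replicate 1, 2 or 3 or WT replicate 3 (adjusted p = 0.113 without WT replicate 3), Aqp3 in every such fit but that without WT replicate 2 (adjusted p = 0.157 without WT replicate 1) and Pxdc1 in every such fit but that without WT replicate 3 (adjusted p = 0.102 without WT replicate 1). WT replicate 3 was the lowest WT array in 11 of the 22 NKT17 genes, in 9 of the 14 called, in 11 of the 15 largest increases and in 4982 of all 13034 genes.

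**Figure D2:**
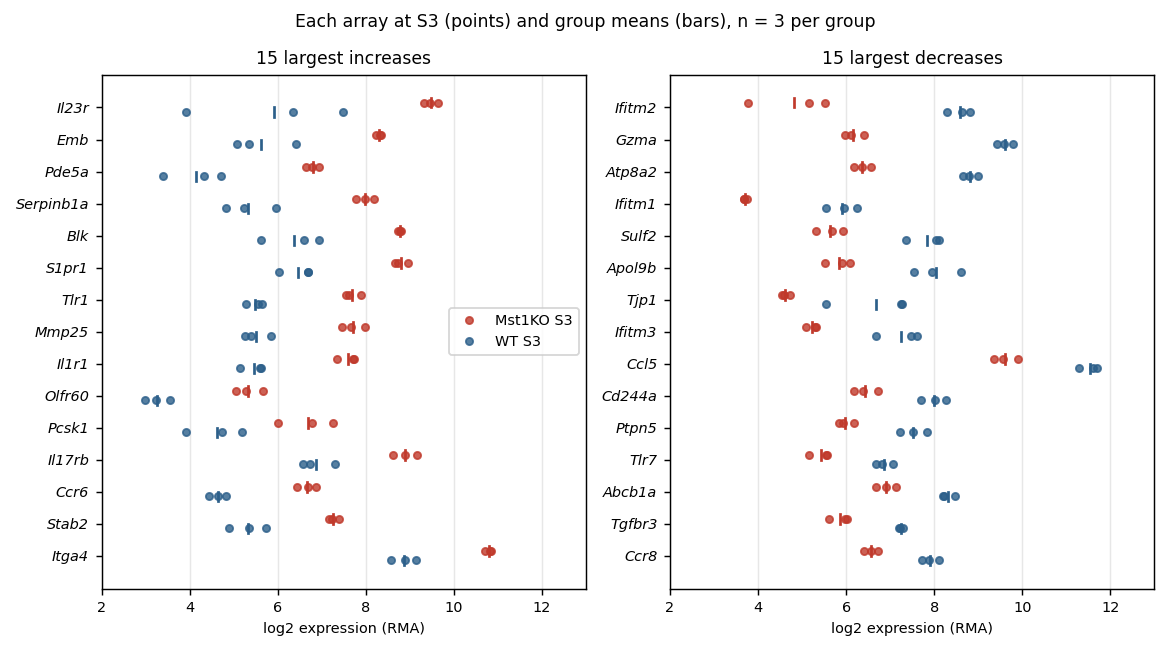
Points are the 6 S3 arrays (log2 expression, horizontal axis), red for Mst1KO and blue for WT, and short bars are group means, for 30 called genes without overlap of the arrays, the 15 most increased and the 15 most decreased. In Il23r the 3 WT arrays spread from 3.92 to 7.48 while the Mst1KO arrays lie between 9.32 and 9.65.

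Gamma-delta T cells share much of the IL-17 program. Of 5 of their markers tested, Cd163l1 (the scavenger receptor SCART1, 1.03 ± 0.12, adjusted p = 7.88e-05) and Blk, which is also in the NKT17 list, were higher, against 2.35% of all genes, and 3 were not called; the median was 0.18. The mean level over the 6 measured markers was 6.38 to 6.48 on the Mst1KO arrays and 5.59 to 6.27 on the WT arrays, and none of the 6 lay below the array median on all S3 arrays. This mean includes Blk and Cd163l1, while the arrays of Sox13 and Trgv6 overlapped between genotypes. Sox13, a transcription factor of gamma-delta T cells, differed by 0.18 ± 0.16 and was not called. Trgv6, a gamma-delta receptor segment, did not pass the filter and had levels of 3.88 to 4.23 in Mst1KO and 3.71 to 5.95 in WT. The receptor genes Trdc and Tcrg-V4 were not analysed here. The part of these cells in the NKT17 result was not tested.

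Of 21 NKT1 genes tested, 1 was higher, 1 lower and 19 were not called (9.52% called, against 3.4% of all genes), with a median of -0.14. Tbx21, which encodes T-bet, had levels of 9.82, 9.78 and 9.89 in Mst1KO and 9.95, 9.90 and 9.82 in WT (-0.06 ± 0.15). Il2rb, the receptor chain for IL-15 and IL-2, differed by -0.05 ± 0.10. Ifng, the interferon gamma gene, stood at 10.14, 10.003 and 9.86 in Mst1KO, against 9.51, 9.31 and 9.35 in WT; the arrays did not overlap but the difference of 0.61 ± 0.20 was not called (adjusted p = 0.117). Il18r1, a chain of the IL-18 receptor, rose by 0.60 ± 0.11 (adjusted p = 0.00562). Ccl5, a chemokine gene of effector lymphocytes, fell to 9.57, 9.89 and 9.35 in Mst1KO, against 11.69, 11.60 and 11.30 in WT, a difference of -1.93 ± 0.24 (adjusted p = 0.000148).

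Of 21 cytotoxic granule genes tested, none was higher, 2 were lower (9.52% called, against 1.05% of all genes called lower) and 19 were not called, and the median was 0.05. Gzma, which encodes granzyme A, had the second largest decrease of all genes. Its levels were 6.11, 5.98 and 6.40 in Mst1KO and 9.80, 9.58 and 9.42 in WT, 10.8-fold lower in Mst1KO (-3.44 ± 0.44, adjusted p = 0.000187). No Mst1KO array came near the WT range. Prf1, which encodes the pore-forming protein perforin, stood at 8.97, 8.73 and 9.04 in Mst1KO, against 10.04, 9.86 and 9.50 in WT (-0.89 ± 0.23, adjusted p = 0.0456), but lost its call in every such fit but that without WT replicate 3 (adjusted p = 0.157 without WT replicate 1). Gzmb, which encodes granzyme B, had levels of 11.55, 11.32 and 11.35 in Mst1KO and 11.95, 11.86 and 11.84 in WT (-0.47 ± 0.48); the arrays did not overlap, and it was not called. The granule genes Nkg7 (-0.14 ± 0.23) and Ctsw (-0.01 ± 0.10) were not called either. Tnfsf10, which encodes the death ligand TRAIL, was lower, with a difference of -1.07 ± 0.20 (adjusted p = 0.0064), with levels of 7.63, 7.62 and 7.64 in Mst1KO and 8.84, 8.60 and 8.65 in WT. In the list of 21 TNF receptor and death ligand genes it was the only member called lower, and Tnfrsf25, the receptor for TL1A, the only one called higher (1.24 ± 0.18, adjusted p = 0.000755). The share of this list called was 9.52%, against 3.4% of all genes.

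Receptors shared with NK cells were tested in 3 lists. None of 3 Ly49 receptor genes tested was called. Of 9 CD94 and NKG2 genes (11.1% called, against 3.4% of all genes), Tyrobp, which encodes the signalling adaptor DAP12, was higher (0.88 ± 0.19, adjusted p = 0.0193), a call lost without Mst1KO replicate 1 or 3 or WT replicate 3 (adjusted p = 0.0961 without Mst1KO replicate 3). Of 7 NKR-P1 genes (14.3% called), Klrb1b was higher, with levels of 7.14, 7.20 and 7.28 in Mst1KO and 6.09, 6.64 and 5.84 in WT (1.02 ± 0.24, adjusted p = 0.0263), a call lost in every such fit but that without WT replicate 2 (adjusted p = 0.102 without WT replicate 3). Cd244a, the SLAM-family receptor 2B4, fell to 6.38, 6.72 and 6.19 in Mst1KO, against 8.26, 7.71 and 8.02 in WT (-1.56 ± 0.25, adjusted p = 0.00194). Slamf6, a SLAM-family receptor in iNKT development, was higher at 9.28, 9.98 and 10.25 in Mst1KO, against 6.91, 8.61 and 8.92 in WT (1.69 ± 0.36, adjusted p = 0.0148). WT replicate 1 lay well below the other WT arrays for Slamf6, and without it the difference was 1.07. The call was lost without Mst1KO replicate 2 or 3 (adjusted p = 0.0809 without Mst1KO replicate 3). Cd244a and Slamf6 were the 2 calls among 10 SLAM and SAP genes (20%, against 3.4% of all genes). Tigit, an inhibitory receptor, was called lower although its arrays overlapped (4.98, 5.27 and 4.05 in Mst1KO, 6.80, 5.18 and 6.52 in WT, -1.40 ± 0.35, adjusted p = 0.0364), and the call was lost without Mst1KO replicate 1 or 3 or WT replicate 1 or 3 (adjusted p = 0.157 without Mst1KO replicate 3). In the list of 20 inhibitory and costimulatory receptor genes, Tigit and Cd244a were the 2 lower members and Cd5 the 1 higher (15% called).

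Among the NKT2 genes, 3 of 17 were higher and 1 was lower (23.5% called, against 3.4% of all genes), with a median of 0.08. Il17rb, which encodes a chain of the IL-25 receptor, had levels of 8.62, 9.17 and 8.89 in Mst1KO and 6.56, 7.29 and 6.73 in WT, 4.08-fold higher in Mst1KO (2.03 ± 0.18, adjusted p = 4.76e-06). Il6ra, the IL-6 receptor chain, rose by 0.99 ± 0.17 (adjusted p = 0.00279), and Slamf6 was the third. Il4, the cytokine gene of the program, went the other way: 7.35, 7.18 and 7.17 in Mst1KO, against 8.34, 8.31 and 7.99 in WT (-0.98 ± 0.12, adjusted p = 0.000108). Zbtb16, which encodes PLZF, the transcription factor of innate-like T cells, had levels of 10.36, 10.65 and 10.67 in Mst1KO and 9.86, 10.15 and 10.43 in WT; the arrays overlapped and the difference was not called (0.42 ± 0.12, adjusted p = 0.0619). Gata3, a regulator of IL-4-producing T cells, differed by 0.06 ± 0.08. Il4 and Ccl5 were the only members called among 17 cytokine and chemokine genes (11.8%, against 3.4% of all genes).

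Among genes that govern exit from tissue, adhesion and migration, single members showed large increases. S1pr1, the receptor for sphingosine 1-phosphate through which T cells leave the thymus, had levels of 8.67, 8.73 and 8.96 in Mst1KO and 6.68, 6.69 and 6.03 in WT, 5-fold higher in Mst1KO (2.32 ± 0.16, adjusted p = 4.7e-07). Klf2, a transcription factor that drives S1pr1, was higher by 0.78 ± 0.21 (adjusted p = 0.0478), a call lost without Mst1KO replicate 1 or 3 or WT replicate 3 (adjusted p = 0.16 without Mst1KO replicate 3). Without WT replicate 3 the Klf2 difference was 0.47. These were 2 of 14 egress genes tested (14.3%, against 2.35% of all genes called higher). None was lower, and the median of the list was 0.13. S1pr4, another sphingosine 1-phosphate receptor, differed by 0.42 ± 0.11 and missed the threshold (adjusted p = 0.0514), and Cd69, which antagonises S1PR1 at the cell surface, differed by -0.07 ± 0.23.

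Of 17 integrin genes, 3 were higher and 1 was lower (23.5% called, against 3.4% of all genes). Itga4, the alpha 4 chain that pairs with beta 1 or beta 7, had levels of 10.71, 10.83 and 10.85 in Mst1KO and 8.58, 8.88 and 9.13 in WT (1.93 ± 0.15, adjusted p = 1.11e-06). Itgb3, the beta chain of vitronectin and fibrinogen receptors, stood at 8.04, 8.45 and 8.67 in Mst1KO, against 6.69, 6.58 and 6.53 in WT (1.79 ± 0.14, adjusted p = 1.26e-06). Itga6, an alpha chain of laminin receptors, reached 8.24, 8.35 and 8.10 in Mst1KO, against 7.13, 7.35 and 7.30 in WT (0.97 ± 0.11, adjusted p = 7.1e-05). The 3 increases were called in every fit that left out an S3 array. Itgae, the CD103 chain that binds E-cadherin, fell to 10.04, 9.79 and 9.59 in Mst1KO, against 10.72, 10.58 and 10.39 in WT (-0.75 ± 0.15, adjusted p = 0.00794), and lost its call without Mst1KO replicate 3 (adjusted p = 0.0526). Partner chains and the alpha chain of the leukocyte integrin LFA-1 did not pass the test. Itgb7 differed by 0.42 ± 0.13 (adjusted p = 0.101), Itgb1 by 0.14 ± 0.16 and Itgal by 0.03 ± 0.07. Of 22 RASSF, RAP1 and DOCK genes, through which MST1 is tied to integrin activation, Fyb, the adaptor ADAP, alone was called (-0.32 ± 0.08, adjusted p = 0.0357), and it lost the call in all 6 such fits (adjusted p = 0.152 without Mst1KO replicate 3). The share called in this list, 4.55%, was near the 3.4% of all genes. Rassf5, the MST1 partner RAPL, differed by -0.06 ± 0.08 and was not called.

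Chemokine receptors changed in both directions, with 4 of 15 higher, 2 lower and 9 not called (40% called, against 3.4% of all genes). Beside Ccr6, Ccr2, a receptor for CCL2, had levels of 8.43, 8.50 and 8.27 in Mst1KO and 7.39, 7.60 and 7.27 in WT (0.98 ± 0.12, adjusted p = 0.000138). Ccr10, a receptor for CCL27 and CCL28, stood at 7.28, 6.75 and 7.02 in Mst1KO, against 6.03, 6.14 and 4.90 in WT (1.33 ± 0.24, adjusted p = 0.00615). Cxcr4, the receptor for CXCL12, had levels of 9.24, 9.41 and 9.53 in Mst1KO and 8.78, 8.74 and 8.004 in WT (0.88 ± 0.17, adjusted p = 0.00754). WT replicate 3 was the low WT array for both Ccr10 and Cxcr4, with differences of 0.94 and 0.63 without it. Ccr8, a receptor for CCL1, fell to 6.57, 6.39 and 6.72 in Mst1KO, against 8.11, 7.73 and 7.88 in WT (-1.35 ± 0.24, adjusted p = 0.0044). Ccr9, a receptor for CCL25, was below the array median on every S3 array, and its difference of -0.68 ± 0.16 lost the call without Mst1KO replicate 3 or WT replicate 1 or 2 (adjusted p = 0.134 without Mst1KO replicate 3). Cxcr3 (0.15 ± 0.16) and Cxcr6 (-0.10 ± 0.10), receptors abundant on S3 cells, were not called. The 4 increases were also counted in each fit without an S3 array, and 2 of them on the 6 S3 arrays alone.

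The largest decrease of all was in Ifitm2, and its neighbours Ifitm1 and Ifitm3 fell with it. The Ifitm genes encode interferon-induced transmembrane proteins that hinder the entry of enveloped viruses. Ifitm2 had levels of 3.77, 5.15 and 5.51 in Mst1KO and 8.80, 8.30 and 8.63 in WT, 13.6-fold lower in Mst1KO (-3.77 ± 0.37, adjusted p = 1.46e-05). Ifitm1 stood at 3.68, 3.74 and 3.69 in Mst1KO, all under the array median, against 5.54, 5.96 and 6.24 in WT (-2.21 ± 0.17, adjusted p = 1.33e-06). Ifitm3 had levels of 5.31, 5.09 and 5.29 in Mst1KO and 7.61, 7.47 and 6.69 in WT (-2.02 ± 0.27, adjusted p = 0.00032). In all 3 genes every Mst1KO array lay below every WT array, and each kept its call in all 6 fits without an S3 array. Ifitm1 passed the filter through its WT arrays of S3. The filter was not applied again in those fits, so the kept call of Ifitm1 adds no support. The Ifitm genes are paralogs, and whether a probe set reads more than 1 of them was not checked.

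Of 27 type I interferon response genes tested, the 3 Ifitm genes were the only members called, all lower (11.1%, against 1.05% of all genes). The list median was -0.23, against 0.0097 over all genes. Irf7, a transcription factor of the response, had levels of 9.20, 9.11 and 9.15 in Mst1KO and 9.46, 9.37 and 9.33 in WT (-0.23 ± 0.13), and Isg15, a ubiquitin-like protein, 8.01, 7.80 and 8.05 in Mst1KO and 8.19, 8.19 and 8.17 in WT (-0.23 ± 0.17). Ifit1 (-0.28 ± 0.14), Ifit3 (-0.03 ± 0.17) and Bst2 (-0.13 ± 0.14), which encode antiviral effectors, were not called. Differences were negative in 21 of the 27.

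Because the 3 Ifitm genes moved together, the 250 bases upstream of each RefSeq start are shown for GRCm38.p6, each on the strand of its gene. Capitals mark a pair of GAAA half-sites with any 2 bases between them, the core of the interferon-stimulated response element, searched on both strands.
Ifitm1, chr7:140967826-140968075, plus strand: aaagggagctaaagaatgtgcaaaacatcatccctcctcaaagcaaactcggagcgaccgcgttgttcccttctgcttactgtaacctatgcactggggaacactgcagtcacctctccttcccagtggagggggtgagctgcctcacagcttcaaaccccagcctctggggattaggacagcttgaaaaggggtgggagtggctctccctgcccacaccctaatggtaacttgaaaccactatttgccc
Ifitm2, chr7:140955962-140956211, minus strand: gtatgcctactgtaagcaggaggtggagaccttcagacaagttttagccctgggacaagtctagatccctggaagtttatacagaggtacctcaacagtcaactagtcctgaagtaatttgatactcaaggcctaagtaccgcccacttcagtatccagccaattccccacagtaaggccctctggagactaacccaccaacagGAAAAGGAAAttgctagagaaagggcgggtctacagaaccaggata
Ifitm3, chr7:141010745-141010994, minus strand: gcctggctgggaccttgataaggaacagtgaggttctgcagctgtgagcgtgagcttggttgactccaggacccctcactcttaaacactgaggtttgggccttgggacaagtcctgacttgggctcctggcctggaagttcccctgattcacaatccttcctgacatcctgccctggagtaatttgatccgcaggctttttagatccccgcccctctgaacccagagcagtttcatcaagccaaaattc
The motif occurred once, in the Ifitm2 window, from -46 to -37 relative to the start, and these letters were not found in the Ifitm1 and Ifitm3 windows. It was present in 2.98% of 32536 windows of the same length. The gamma-activated site TTCNNNGAA, which reads the same on both strands in its fixed letters, was found in none of the 3 windows and in 7.04% of all windows. These matches describe the sequence and show no binding.

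Of 38 lineage transcription factor genes, 6 were higher and 2 lower (21.1% called, against 3.4% of all genes), with a median of 0.06. Myb, which encodes a regulator of progenitor and early iNKT survival, had levels of 7.67, 7.83 and 8.03 in Mst1KO and 6.17, 6.19 and 6.81 in WT (1.46 ± 0.15, adjusted p = 2.88e-05). The probe sets of Myb disagreed in direction, and their mean gave a difference of 0.65. Irf4, which encodes a factor of activated and IL-17-producing T cells, stood at 6.41, 6.75 and 6.69 in Mst1KO, against 5.07, 5.54 and 5.45 in WT (1.26 ± 0.13, adjusted p = 2.11e-05). Both kept their calls in every fit without an S3 array. Mycn (0.73 ± 0.16), Id3, an inhibitor of E proteins (0.66 ± 0.13), Batf, a partner of IRF4 (0.45 ± 0.11), and Runx1 (0.32 ± 0.08) were also called higher, and each lost its call in at least 1 of those fits. For Id3 this was without Mst1KO replicate 3 (adjusted p = 0.0645), for Mycn without Mst1KO replicate 1 or 3 or WT replicate 3 (adjusted p = 0.0871 without Mst1KO replicate 1), for Runx1 without Mst1KO replicate 1 or 3 or WT replicate 1 or 2 (adjusted p = 0.15 without Mst1KO replicate 3) and for Batf in every such fit but that without WT replicate 2 (adjusted p = 0.144 without Mst1KO replicate 3). Bhlhe40, a repressor needed for iNKT effector function, fell to 8.91, 8.62 and 8.15 in Mst1KO, against 9.32, 9.27 and 9.77 in WT (-0.89 ± 0.21, adjusted p = 0.0257), a call lost without Mst1KO replicate 2 or 3 or WT replicate 3 (adjusted p = 0.125 without Mst1KO replicate 3). Hivep3, a zinc-finger gene with a role in iNKT development, was lower, with a difference of -0.56 ± 0.12 (adjusted p = 0.02), a call lost without Mst1KO replicate 1 or WT replicate 1 (adjusted p = 0.0991 without Mst1KO replicate 1).

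Of 26 T cell receptor signalling genes tested, 3 were higher (11.5%, against 2.35% of all genes) and none lower: Themis, an adaptor of thymocyte selection (0.88 ± 0.19), Cd5, a negative regulator of receptor signalling (0.44 ± 0.09), and Dgka, a kinase that removes diacylglycerol (0.49 ± 0.12). Themis lost its call without Mst1KO replicate 1 or 3 or WT replicate 1 or 3 (adjusted p = 0.0814 without Mst1KO replicate 3), Cd5 without Mst1KO replicate 3 or WT replicate 1 (adjusted p = 0.0601 without WT replicate 1) and Dgka in every such fit but that without WT replicate 2 (adjusted p = 0.116 without WT replicate 3). Of 31 immediate early and receptor-response genes, 2 were higher and 3 lower (16.1% called, against 3.4% of all genes). Nr4a1, a nuclear receptor induced by receptor signalling, had levels of 8.41, 8.58 and 8.55 in Mst1KO and 7.64, 7.82 and 8.17 in WT (0.63 ± 0.12, adjusted p = 0.00738). Its relative Nr4a2 went the other way (-0.61 ± 0.15, adjusted p = 0.0339), a call lost without Mst1KO replicate 1 or 3 or WT replicate 2 or 3 (adjusted p = 0.12 without WT replicate 3). Klf6 was higher by 0.72 ± 0.14 (adjusted p = 0.00882). The AP-1 genes Junb (-0.49 ± 0.10) and Fosl2 (-0.82 ± 0.17) were lower, with adjusted p of 0.0138 and 0.0147. Junb lost its call without Mst1KO replicate 3 or WT replicate 1 (adjusted p = 0.054 without WT replicate 1) and Fosl2 without Mst1KO replicate 3 (adjusted p = 0.0705). Fos (0.18 ± 0.21) and Jun (0.26 ± 0.14) were not called.

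Among 24 Hippo pathway genes tested, 3 were higher (12.5%, against 2.35% of all genes) and none lower, with a median of 0.08. Ajuba, a LIM-domain scaffold that inhibits LATS kinases, had levels of 7.73, 8.20 and 8.22 in Mst1KO and 6.52, 6.78 and 6.87 in WT (1.33 ± 0.25, adjusted p = 0.00672). Stk38, which encodes the LATS-related kinase NDR1, a substrate of MST1 in lymphocytes, was higher by 0.55 ± 0.12 (adjusted p = 0.0145), and Map4k4, a kinase that can act on LATS, by 0.35 ± 0.09 (adjusted p = 0.0379). Stk38 lost its call without Mst1KO replicate 1 or 3 or WT replicate 3 (adjusted p = 0.0738 without Mst1KO replicate 3) and Map4k4 in all 6 such fits (adjusted p = 0.139 without Mst1KO replicate 3). The core kinase genes Lats1 (0.07 ± 0.12) and Lats2 (0.16 ± 0.12), the adaptor Mob1a (0.15 ± 0.09) and Yap1 (0.07 ± 0.11) were not called. Of 14 YAP and TEAD target genes tested, Ajuba, which is in both lists, was the only member called (7.14%, against 3.4% of all genes). The targets Ccn1 (0.13 ± 0.19) and Ccn2 (-0.17 ± 0.12) were not. Of 24 quiescence genes, Klf2, Rb1 (0.37 ± 0.09) and Ndrg1 (0.66 ± 0.15) were higher (12.5%, against 2.35% of all genes). None was lower, and the median was -0.03. Rb1, the retinoblastoma cell-cycle brake, lost its call without Mst1KO replicate 2 or 3 or WT replicate 1 or 2 (adjusted p = 0.111 without Mst1KO replicate 3), and Ndrg1 without Mst1KO replicate 1 or 3 or WT replicate 3 (adjusted p = 0.0861 without Mst1KO replicate 3).

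Of 28 mitosis genes, 24 had a positive difference, with a median of 0.51 against 0.0097 over all genes, and 2 were called (7.14% higher, against 2.35% of all genes), Cdk1 (0.74 ± 0.20, adjusted p = 0.0478) and Aurka (0.72 ± 0.19, adjusted p = 0.0481). Both encode mitotic kinases. Mki67, the proliferation marker, had levels of 8.35, 8.89 and 9.02 in Mst1KO and 7.37, 7.84 and 8.82 in WT (0.74 ± 0.26, adjusted p = 0.14), and its ranges overlapped through WT replicate 3. This array was the highest WT array in 25 of the 28 mitosis genes and in 4073 of all 13034 genes. Cdk1 lost its call in every such fit but that without WT replicate 3 (adjusted p = 0.187 without WT replicate 1) and Aurka in every such fit but that without WT replicate 2 (adjusted p = 0.193 without WT replicate 1). Of 28 DNA replication genes, 2 were also higher (7.14%): Gins1, a subunit of the replicative helicase complex (1.06 ± 0.22, adjusted p = 0.0121), and Pold1, the catalytic subunit of DNA polymerase delta (0.44 ± 0.11, adjusted p = 0.0442). Gins1 lost its call without WT replicate 1 (adjusted p = 0.0583) and Pold1 in all 6 such fits (adjusted p = 0.167 without Mst1KO replicate 1). None of 7 replication-dependent histone genes tested was called.

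Several genes outside the T cell lists changed by as much as the NKT17 genes. Pde5a, which encodes a phosphodiesterase for cyclic GMP, had levels of 6.65, 6.94 and 6.78 in Mst1KO and 4.32, 4.71 and 3.39 in WT (2.65 ± 0.25, adjusted p = 8.16e-06). Tlr1, which pairs with TLR2 to sense bacterial lipopeptides, stood at 7.55, 7.62 and 7.89 in Mst1KO, against 5.63, 5.27 and 5.54 in WT (2.21 ± 0.12) and had the lowest p of all genes (adjusted p = 4.15e-08). Mmp25, a membrane-anchored matrix metalloproteinase, had levels of 7.99, 7.45 and 7.66 in Mst1KO and 5.85, 5.40 and 5.25 in WT (2.20 ± 0.24, adjusted p = 5.37e-05). In each of these 3 genes every Mst1KO array lay far above every WT array. Stab2, a scavenger receptor for hyaluronan, rose by 1.93 ± 0.27 (adjusted p = 0.000443), and Pcsk1, a prohormone-processing protease, by 2.06 ± 0.35 (adjusted p = 0.00364). Pcsk1 levels were 6.00, 7.25 and 6.79 in Mst1KO, against 3.93, 5.20 and 4.74 in WT, and the call was lost on the 6 S3 arrays alone (adjusted p = 0.0536). Olfr60, an olfactory receptor gene, had WT levels under the array median (5.27, 5.67 and 5.05 in Mst1KO, 3.24, 3.56 and 2.97 in WT), so its difference of 2.07 ± 0.34 is among dim values. Pdlim1, an actin-associated PDZ and LIM protein, had levels of 7.52, 7.53 and 7.51 in Mst1KO and 5.57, 5.92 and 6.13 in WT (1.64 ± 0.12, adjusted p = 4.77e-07).

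Among the decreases, Atp8a2, a flippase that moves phosphatidylserine across membranes, fell to 6.36, 6.56 and 6.18 in Mst1KO, against 8.80, 8.99 and 8.65 in WT (-2.45 ± 0.17, adjusted p = 4.7e-07). Sulf2, an enzyme that removes sulfate from heparan sulfate, had levels of 5.92, 5.67 and 5.33 in Mst1KO and 8.11, 7.36 and 8.04 in WT (-2.20 ± 0.22, adjusted p = 1.46e-05). Apol9b, of the apolipoprotein L family, stood at 5.91, 6.09 and 5.52 in Mst1KO, against 8.60, 7.95 and 7.55 in WT (-2.19 ± 0.23, adjusted p = 2.7e-05). Atp8a2, Sulf2 and Apol9b were each more than 4-fold lower in Mst1KO. Tjp1, which encodes the tight junction scaffold ZO-1, had levels of 4.72, 4.59 and 4.55 in Mst1KO and 7.27, 7.24 and 5.53 in WT, with WT replicate 3 low (-2.06 ± 0.33, adjusted p = 0.00161). Without that array the difference was -2.64, and on the 6 S3 arrays alone the call was lost (adjusted p = 0.0695). Further decreases were in Ptpn5, a tyrosine phosphatase, with a difference of -1.54 ± 0.17 (adjusted p = 5.37e-05), in Tlr7, the sensor of single-stranded RNA, with -1.43 ± 0.19 (adjusted p = 0.000332), and in Abcb1a, a drug-efflux pump, with -1.40 ± 0.19 (adjusted p = 0.000388). Tgfbr3, the TGF-beta co-receptor betaglycan, fell to 6.02, 5.62 and 5.97 in Mst1KO, against 7.23, 7.21 and 7.29 in WT (-1.37 ± 0.12, adjusted p = 5.05e-06). With Itgae and Rgs2 (-0.51 ± 0.13) it made 3 of 22 TGF-beta and residency genes called lower (13.6%, against 1.05% of all genes). None was higher, and the median was -0.20. Rgs2, a regulator of G protein signalling, lost its call in all 6 such fits (adjusted p = 0.124 without Mst1KO replicate 2). All 15 largest increases and 15 largest decreases kept their calls in each of the 6 fits that left out an S3 array. They were picked for large differences without overlap on these same arrays, and this choice favours a kept call. For Ifitm1 and Tjp1 so does the filter, which was not applied again in these fits. Of all 443 calls, 33.6% were kept.

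Circadian clock genes split: 3 of 16 were higher and 1 was lower (25% called, against 3.4% of all genes), and the median was -0.01. Nr1d1, the clock repressor REV-ERB alpha, had levels of 6.98, 6.69 and 6.92 in Mst1KO and 5.38, 5.59 and 5.26 in WT (1.45 ± 0.20, adjusted p = 0.000501). Npas2, a partner of BMAL1, was higher by 1.30 ± 0.18 (adjusted p = 0.000388), and Cry1, a clock repressor, by 0.93 ± 0.14 (adjusted p = 0.00113), while Bhlhe40 was lower. Arntl, which encodes BMAL1 (0.31 ± 0.12), and Clock (0.10 ± 0.13) were not called. Of 13 BCL2 family genes, Bak1, a pore-forming cell death effector, was higher at 6.79, 6.93 and 6.95 in Mst1KO, against 6.19, 6.30 and 6.49 in WT (0.56 ± 0.10, adjusted p = 0.00562). Bcl2l11, which encodes the cell death activator BIM, was lower at 7.23, 7.54 and 7.26 in Mst1KO, against 8.32, 8.28 and 8.38 in WT (-0.98 ± 0.19, adjusted p = 0.00712). Bcl2 itself differed by -0.46 ± 0.20 and was not called. The share of BCL2 family genes called was 15.4%, against 3.4% of all genes. Cish, a feedback inhibitor of cytokine receptor signalling, was lower, with a difference of -0.999 ± 0.17 (adjusted p = 0.00364), the only call among 19 common gamma chain and STAT genes. Pfkp, an isoform of the glycolytic enzyme phosphofructokinase, was higher by 0.62 ± 0.09 (adjusted p = 0.000945), the only call among 18 glycolysis genes. The shares called among gamma chain and STAT genes (5.26%) and glycolysis genes (5.56%) were near the 3.4% of all genes.

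Annexin and S100 genes, which encode calcium-binding proteins, gave small differences in 1 direction. All 12 tested had a positive difference, with a median of 0.33, and 5 were called higher (41.7%, against 2.35% of all genes). These were Anxa2 (0.53 ± 0.10), Anxa5 (0.43 ± 0.11), Anxa6 (0.37 ± 0.09), S100a6 (0.43 ± 0.11) and S100a13 (0.37 ± 0.09). The count fell to between 1 and 2 when any S3 array was left out and to 0 on the 6 S3 arrays alone. Anxa2 alone kept its call in all 6 fits without an array. Of 9 RGS genes, Rgs14 (0.42 ± 0.10) and Rgs19 (0.49 ± 0.10) were higher and Rgs2 lower (33.3% called, against 3.4% of all genes). Rgs14 lost its call in every such fit but that without WT replicate 2 (adjusted p = 0.138 without Mst1KO replicate 3) and Rgs19 without Mst1KO replicate 1 (adjusted p = 0.0517). Of 28 ribosomal protein genes, Rps18 was called (-0.50 ± 0.13), with probe sets that disagreed in direction and a mean of -0.14, which was not called, and it lost the call in every such fit but that without Mst1KO replicate 3 (adjusted p = 0.177 without Mst1KO replicate 1). The share called among ribosomal protein genes, 3.57%, was near the 3.4% of all genes. No gene was called among 30 oxidative phosphorylation, 19 sterol and fatty acid synthesis, 23 MYC and ribosome biogenesis, 16 heat shock and 6 Ly6 genes tested. In these lists the medians lay between -0.01 and 0.10.

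**Figure D3:**
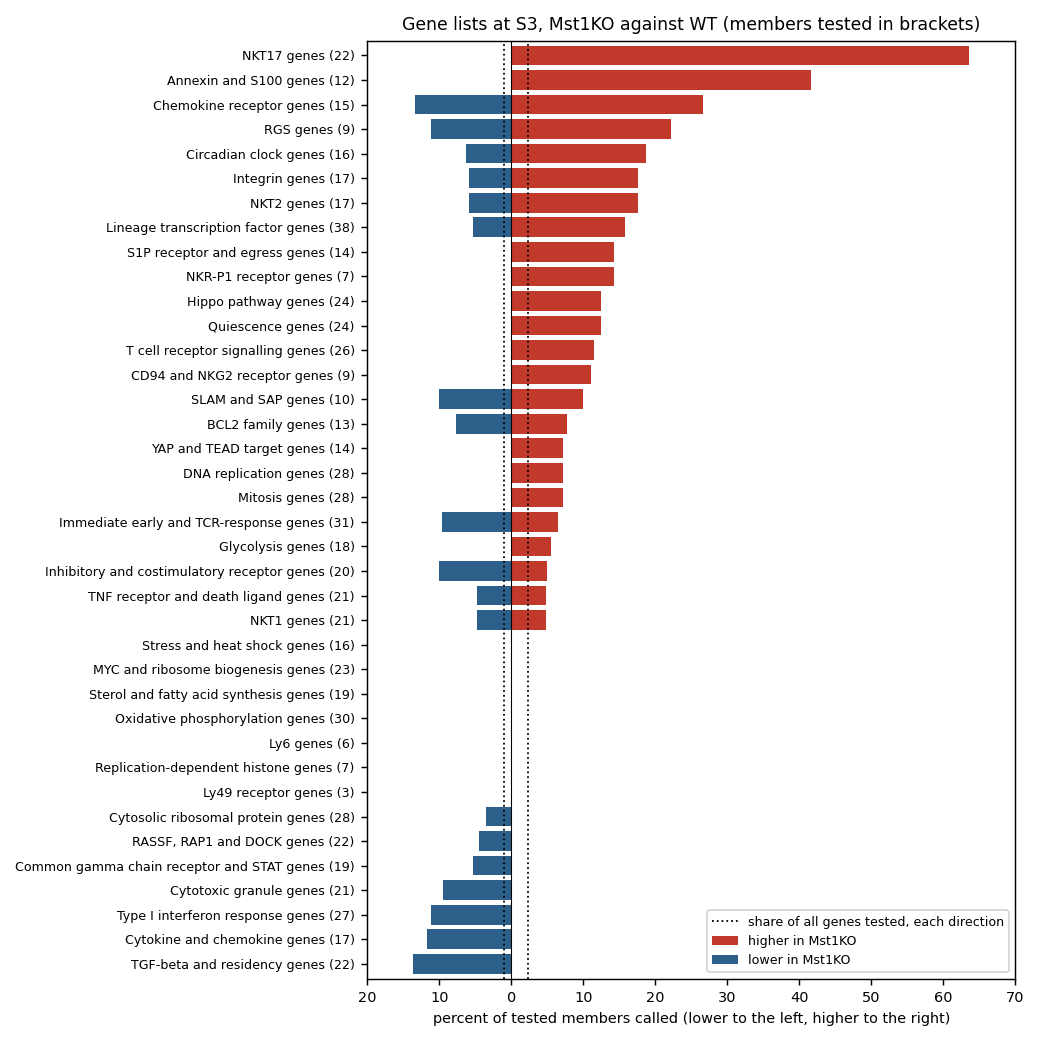
Bars give the percent of each gene list called higher (red, right) and lower (blue, left) in Mst1KO at S3, with the number of members tested in brackets, and dotted lines mark 2.35% and 1.05%, the shares of all genes called higher and lower. The NKT17 bar is the longest, with 14 of 22 members higher and none lower.

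Markers of other cell types were compared to see what else the sort could hold. Of 6 T cell and iNKT identity genes (Cd44, Klrb1c, Cd24a, Zbtb16, Cd3e and Cd5), Cd5, which was not part of the gate, alone was called. Of 15 macrophage and dendritic cell markers tested, C1qb, a complement chain, was higher (7.40, 7.61 and 8.0 in Mst1KO, 6.52, 6.73 and 6.96 in WT, 0.94 ± 0.23, adjusted p = 0.0364) and 14 were not called. Of the 15, 12 had a positive difference and 3 a negative one, with a median of 0.31 against 0.0097 over all genes. The mean level over 18 measured markers was 6.27 to 6.58 on the Mst1KO arrays and 6.10 to 6.32 on the WT arrays, and Siglech, S100a8 and S100a9 lay below the array median throughout S3. The C1qb call was lost without Mst1KO replicate 2 or 3 or WT replicate 1 or 2 (adjusted p = 0.15 without Mst1KO replicate 3). Of 2 B cell markers tested Cd22, an inhibitory receptor of B cells, was lower (4.29, 4.50 and 4.26 in Mst1KO, 5.44, 5.49 and 5.78 in WT, -1.22 ± 0.14, adjusted p = 9.2e-05), while Ms4a1, Pax5 and Ebf1 lay below the array median on all 6 arrays. Ccr9 was the only one of 7 immature thymocyte markers called, and Tyrobp the only one of 7 NK and innate lymphoid markers. None of 8 conventional T cell, 5 regulatory T cell or 6 thymic epithelial markers was called, and no red cell or platelet marker passed the filter on dim genes. The part of other cells in the results was not tested.

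More genes were called between genotypes at S3 than at the earlier stages. At S2, 152 genes were called (1.17%), 93 higher and 59 lower, and at S1 43 genes (0.33%), 34 higher and 9 lower. The comparisons at the 3 stages share no array, but with 3 mice per genotype by the series design and 9 arrays, stages may share mice. All arrays were fitted as independent, so the overlaps and interactions carry this limit. Of the genes called higher at S3, 42 were also called higher at S2, which is 13.7% of the S3 and 45.2% of the S2 calls, and 13 were called lower at both, 9.49% of the S3 and 22% of the S2 calls. With S1, 9 higher genes (2.94% of the S3 and 26.5% of the S1 calls) and 3 lower genes (2.19% and 33.3%) were shared. No gene was called in opposite directions. The genes called at all 3 stages were Anxa6, Itga4, Klf6, Nr1d1, Spice1, Tlr1 and Tnfrsf25, all higher, and Atp8a2, Il4 and Serinc3, all lower. Nr1d1 differed by 1.23 ± 0.20 at S1, 1.57 ± 0.20 at S2 and 1.45 ± 0.20 at S3. Il4 differed by -0.64 ± 0.12 at S1, -1.11 ± 0.12 at S2 and -0.98 ± 0.12 at S3. Serinc3, a membrane protein gene, differed by -0.57, -0.55 and -0.72 at S1, S2 and S3, and Spice1, a centriole gene, by 0.72, 0.57 and 0.67. Anxa6 lost its S3 call in all 6 such fits (adjusted p = 0.129 without Mst1KO replicate 3) and Spice1 without Mst1KO replicate 1 (adjusted p = 0.0509).

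Whether the genotype effect itself differed between stages was tested as an interaction. Against S2, 48 genes had a different effect at S3 (0.368%), 34 with a more positive and 14 with a more negative difference. Against S1, 73 did (0.56%), 47 more positive and 26 more negative. Without WT replicate 3 these counts were 93 and 111, without Mst1KO replicate 3 the first was 25, and without Mst1KO replicate 2 the second was 43. Ifitm1 differed by -0.05 ± 0.17 at S1, 0.07 ± 0.17 at S2 and -2.21 ± 0.17 at S3, and its effect at S3 was distinct from that at S2 (-2.28 ± 0.25, adjusted p = 0.000585) and S1 (-2.16 ± 0.25, adjusted p = 0.000602). Its mean levels were 3.57 in Mst1KO and 3.51 in WT at S2, and 3.47 and 3.52 at S1. These are dim values in both genotypes, where a decrease could hardly show. Pdlim1, with differences of 0.14 ± 0.12 at S1 and 0.15 ± 0.12 at S2, also differed in effect at S3 from S2 (1.49 ± 0.16, adjusted p = 0.000585). Myb differed by -0.31 ± 0.15 at S1 and -0.41 ± 0.15 at S2, neither called, and by 1.46 ± 0.15 at S3 (S3 against S2 1.87 ± 0.22, adjusted p = 0.000821). The S1pr1 effect was larger at S3 than at S2 (0.57 ± 0.16) by 1.75 ± 0.23 (adjusted p = 0.00191), and that of Itgb3 (0.43 ± 0.14 at S2) by 1.36 ± 0.20 (adjusted p = 0.00551). Rubcnl, a regulator of autophagy, had levels of 5.42, 5.78 and 5.67 in Mst1KO and 6.79, 6.69 and 6.74 in WT at S3 (-1.12 ± 0.13, adjusted p = 9.82e-05), against a difference of 0.42 ± 0.13 at S2, and the effects differed (-1.54 ± 0.19, adjusted p = 0.00115). For 1700027F09Rik, with 5.57, 5.23 and 4.91 in Mst1KO and 3.27, 3.44 and 3.51 in WT at S3, the effect exceeded that at S2 by 1.80 ± 0.26 (adjusted p = 0.00551). Its mean levels at S2 were dim, 3.21 in Mst1KO and 3.18 in WT. It passed the filter through the Mst1KO arrays of S3, so the filter favoured this difference. Ajuba differed by -0.88 ± 0.25 at S2, which was not called, and its effect at S3 exceeded that by 2.20 ± 0.35 (adjusted p = 0.0106). Irf4, at 0.17 ± 0.13 in S2, shifted by 1.09 ± 0.18 (adjusted p = 0.0114). Ddx43, an RNA helicase gene, was not called at S3 (0.34 ± 0.10), but its effect differed from that at S2 (-0.62 ± 0.10) by 0.96 ± 0.14 (adjusted p = 0.00636).

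Of the 22 NKT17 genes, 6 (Il1r1, Ccr6, Serpinb1a, Blk, Abi3bp and Emb) had a different effect at S3 than at S1 and 1, Emb, at S3 than at S2. At S1 the mean levels in Mst1KO and WT were dim for Ccr6 (4.05 and 4.15), Il1r1 (4.30 and 5.07) and Serpinb1a (4.85 and 5.34). A decrease in these genes could hardly show there. At S3 the WT means were also low for Ccr6 (4.63), Il1r1 (5.45) and Serpinb1a (5.33), and Mst1KO was higher. Blk (6.33 and 7.21) and Emb (9.77 and 9.51) had higher levels at S1. How many NKT17 genes differed was not compared between the 2 interactions. At S2, 7 of the 22 NKT17 genes were called, against 1.17% of all genes. The median of the list was 0.85 at S2 and 1.13 at S3. At S1 none was called, with a median of 0.06. Ccr6 was already higher at S2 (1.51 ± 0.26, adjusted p = 0.0102), and its effect at S3 did not differ detectably from that (0.52 ± 0.37, adjusted p = 0.645). Il1r1 (1.28 ± 0.29, adjusted p = 0.0388) and Serpinb1a (1.29 ± 0.26, adjusted p = 0.0223) were also called higher at S2. Their effects at S3 did not differ detectably from those (adjusted p = 0.434 and 0.149). Il23r differed by 0.998 ± 0.56 at S2, which was not called, and the larger effect at S3 was not called as distinct from it (2.56 ± 0.80, adjusted p = 0.201). Gzma differed by -1.03 ± 0.44 at S2 and -1.22 ± 0.44 at S1, neither called, and the larger effect at S3 was not called as distinct from S2 (-2.40 ± 0.62, adjusted p = 0.12) or S1 (-2.22 ± 0.62, adjusted p = 0.149).

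Near Stk3, Laptm4b, which encodes a lysosomal membrane protein, and Matn2, a matrix protein gene, differed in effect between stages in the opposite sense. Laptm4b had levels of 7.13, 7.40 and 7.21 in Mst1KO and 7.86, 7.36 and 7.35 in WT at S3 (-0.27 ± 0.21, not called), against a difference of -2.60 ± 0.21 at S1, and the effects differed (2.33 ± 0.30, adjusted p = 0.00133). At S2 Laptm4b differed by -0.23 ± 0.21, not called. Its effect at S3 did not differ detectably from that at S2 (-0.04 ± 0.30, adjusted p = 0.976). Matn2 had levels of 5.41, 5.53 and 5.35 in Mst1KO and 4.81, 5.59 and 5.19 in WT at S3 (0.23 ± 0.21, not called), against -1.42 ± 0.21 at S2 and -2.26 ± 0.21 at S1. Its effect at S3 differed from that at S1 (2.497 ± 0.30, adjusted p = 0.00066) and S2 (1.65 ± 0.30, adjusted p = 0.0186). For both genes the S3 arrays of the genotypes overlapped.

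**Figure D4:**
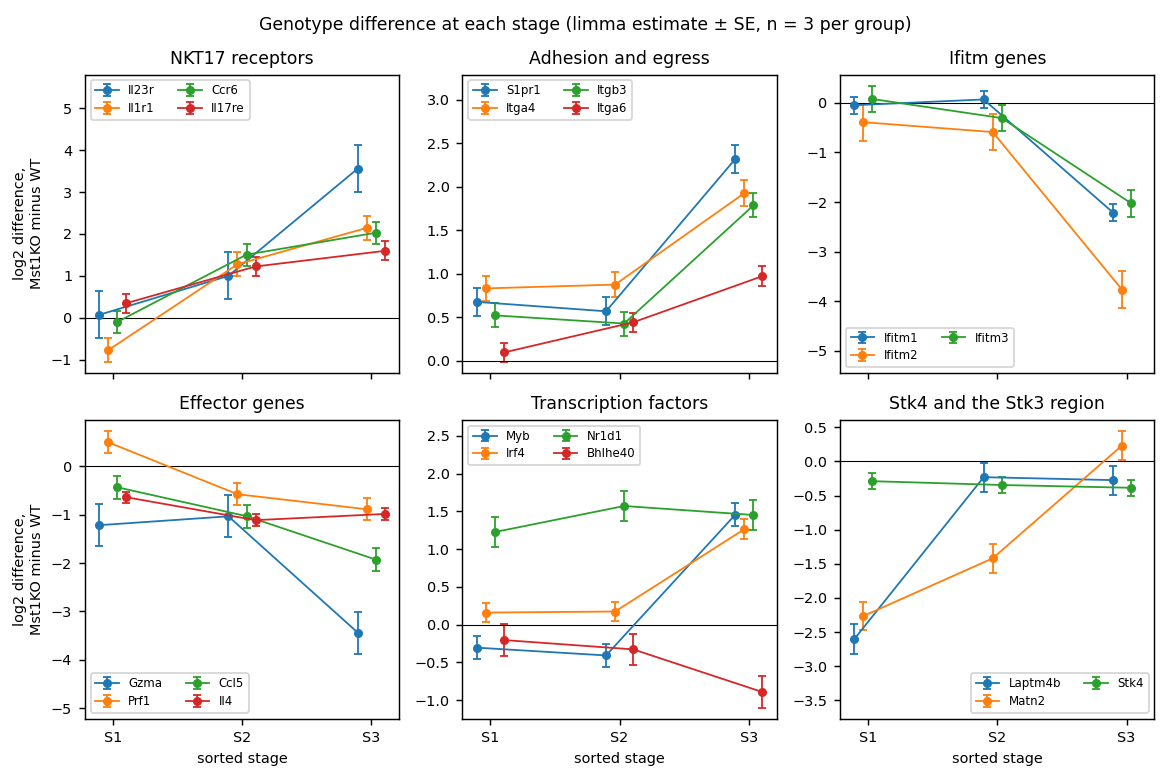
Each panel plots the log2 difference (Mst1KO minus WT, vertical axis, limma estimate with SE bars, n = 3 per group) at S1, S2 and S3. Ifitm1 has differences of -0.05, 0.07 and -2.21 and Ccr6 of -0.10, 1.51 and 2.03, and Laptm4b and Matn2 are lower at S1 but not called at S3. Ifitm1 was dim in both genotypes at S1 and S2.

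**Figure D5:**
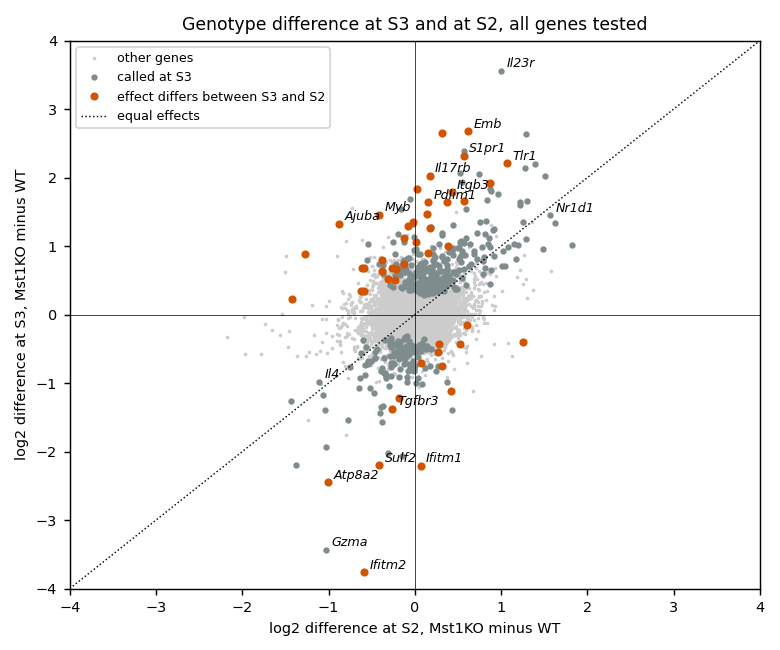
Each point is a gene, with the log2 difference at S2 on the horizontal axis and at S3 on the vertical axis (Mst1KO minus WT). Orange points are the 48 genes whose effect differed between S3 and S2, dark grey points the other genes called at S3, and the dotted line marks equal effects; Ifitm1 lies at 0.07 and -2.21, and Il4 near the line at -1.11 and -0.98.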

How the data were processed

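Thymic iNKT cells were sorted into 3 stages in 2 genotypes, with 3 arrays for each of the 6 groups. RNA (1 to 20 ng) was amplified and biotinylated and put on Affymetrix MoGene-2_0 arrays, per the labels' protocols. Deposited for each probe set is a log2 RMA value; the submitters' processing notes name Affymetrix Expression Console 1.1 as the authors' software. Of 41345 probe sets, 23521 had 1 gene symbol in the platform annotation, 1814 had several and 16010 had none; only those with 1 were used. A probe set was kept where it exceeded the median of its array on 3 or more of 18 arrays, and the brightest stood for its gene, which gave 13034 genes.

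Differences were fitted with limma 3.58.1 in R 4.3.3 (a mean per group over all 18 arrays, moderated t statistics, Benjamini-Hochberg adjustment over all genes, threshold 0.05); figures were drawn with matplotlib 3.10.9. The steps were tested on simulated data. Genes named are Stk4, the 15 largest increases and decreases with arrays that do not overlap, the 10 lowest p for each interaction, members of the gene lists, genes called at all stages, and the 4 measured genes on each side of Stk4 and Stk3 with Laptm4b and Matn2. Neighbours and names came from RefSeq for GRCm38.p6, and promoter sequences from the same build. The comparison and the lists were chosen with earlier results of these data known. Same-numbered Mst1KO and WT arrays at S3 did not deviate together (r = 0.03, -0.05 and -0.04), so replicate numbers were not used to pair the genotypes. Across stages the numbers were used only in the alternative fit with a block. Alternatives covered the filter, normalization, variance model, array weights, probe-set summary, a minimum fold, the arrays fitted, a replicate block and leaving out each S3 array.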

Additional observations from a re-analysis of the deposited data

Results flagged for a closer look

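The genotype difference (Mst1KO minus WT) of the following genes at S3 differed from that at an earlier stage by the test of the interaction (limma, adjusted over all genes). Values are the S3 difference minus the earlier one on the log2 scale, and both comparisons share the 6 S3 arrays. Against S2 the shift was 2.06 for Emb, 2.34 for Pde5a, 1.75 for S1pr1, 1.14 for Tlr1, 1.86 for Il17rb and 1.05 for Itga4. It was 1.49 for Pdlim1, 1.87 for Myb, 1.36 for Itgb3, 1.80 for 1700027F09Rik, 0.96 for Ddx43 and 1.65 for Matn2. Negative shifts against S2 were -3.18 for Ifitm2, -1.45 for Atp8a2, -2.28 for Ifitm1, -1.79 for Sulf2, -1.11 for Tgfbr3 and -1.54 for Rubcnl. Against S1 the positive shifts were 2.42 for Emb, 3.12 for Pde5a, 3.14 for Serpinb1a, 3.28 for Blk, 1.64 for S1pr1 and 1.22 for Tlr1. Next were 2.53 for Mmp25, 2.92 for Il1r1, 1.80 for Il17rb, 2.13 for Ccr6, 2.29 for Stab2 and 1.097 for Itga4. The others were 1.504 for Pdlim1, 1.76 for Myb, 1.27 for Itgb3, 1.66 for 1700027F09Rik, 0.95 for Ddx43 and 2.497 for Matn2. That of Laptm4b was 2.33. The negative shifts against S1 were -3.38 for Ifitm2, -1.52 for Atp8a2, -2.16 for Ifitm1, -2.34 for Sulf2, -2.34 for Apol9b and -2.17 for Tjp1. They also included -2.10 for Ifitm3, -1.44 for Ptpn5, -1.24 for Tgfbr3 and -1.07 for Rubcnl. At S3 itself Ddx43 (0.34 ± 0.10), Matn2 (0.23 ± 0.21) and Laptm4b (-0.27 ± 0.21) were not called, while the other genes named here were. Ifitm1, Tjp1 and 1700027F09Rik were dim in both genotypes at S2 and S1 and passed the filter through the genotype higher at S3. Ifitm2 was also near the dim end at S2 (mean 4.56 in Mst1KO and 5.15 in WT) and S1 (4.56 and 4.95). So was Sulf2 at S2 (4.84 and 5.25) and S1 (4.97 and 4.82). Ifitm3 (4.82 and 4.74) and Rubcnl (4.73 and 4.79) were so at S1. At such levels a decrease could hardly show.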

How the results depend on the processing

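The 443 genes called at S3 became 38 (28 higher, 10 lower) when a difference of more than 1.5-fold was tested for, and 184 (113 higher, 71 lower) in the fit on the 6 S3 arrays, which has fewer samples to estimate the spread. Leaving out 1 S3 array gave 200 to 369 calls, 131 to 267 higher and 68 to 116 lower. With no filter on dim genes 203 genes were higher, against 306. The interaction of S3 with S2 gave 48 genes, and 25 to 93 without an array. That with S1 gave 73, 116 with a variance trend and robust fit, 123 with array weights, and 43 to 111 without an array. Stk4 passed the test with the filter at the 75th percentile (-0.39, adjusted p = 0.0443), with quantile normalization repeated (-0.43, adjusted p = 0.0423) and without WT replicate 1 (-0.51, adjusted p = 0.0285), with differences of -0.51 to -0.31 over the fits without an array. The cause of these shifts was not tested beyond the fewer samples or genes named. The total stayed within 1.5 times 443 in the other 9 settings, between 299 and 563. Of 106 called genes followed singly, 63 kept the call in all 6 fits without an array, 45 lost it on the 6 S3 arrays and 30 kept it under the minimum fold. None of 111 genes followed changed sign in any setting. Of 25 called genes with several probe sets, 9 had probe sets that disagreed in direction (Arhgef10, Axin2, Gart, Lsr, Myb, Myo1g, Rps18, Rps24 and Trpv2). Genes near or under the array medians have compressed differences.

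With the replicate block, 460 genes were called (313 higher, 147 lower), 393 of them among the 443. Same-numbered Mst1KO and WT arrays at S3 did not deviate together. Same-numbered Mst1KO arrays of S3 and S2 correlated at 0.118, 0.051 and 0.083, each above the best other number (-0.044, 0.0077 and -0.00062). Same-numbered WT arrays of S3 and S2 correlated at 0.063, -0.015 and 0.080, against 0.013, 0.026 and 0.0016 for the best other number. Those of Mst1KO at S3 and S1 correlated at 0.056, 0.061 and 0.0152, against 0.0011, -0.017 and 0.0151 for the best other number. For WT at S3 and S1 the values were 0.0195, -0.053 and -0.0097, against -0.0024, 0.038 and 0.065. The numbers were not used as a pairing across stages in the main fit. If same-numbered arrays share a mouse, the interactions of that fit leave the pairing out. With genotype and number together as a block, the interaction gave 63 genes against S2 and 80 against S1, beside 48 and 73 without it. Whether same-numbered arrays share a mouse was not tested.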
